A study of Mus musculus with 15 samples.

Results

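The cytosolic chaperonin TRiC (also called CCT) was examined through the HSF1 peaks at its 8 subunit genes, Tcp1, Cct2, Cct3, Cct4, Cct5, Cct6a, Cct7 and Cct8. A peak was assigned to a subunit when it overlapped the gene span in GRCm38 (mm10) extended by 5000 bp on each side. This gave 79 of the 54878 peaks in 10 lists, and the 8 genes stand among 21887 protein-coding genes. The lists come from ChIP-seq of heat shock factor 1 (HSF1) in mouse brown adipose tissue (BAT), each called on a single library, in 5 groups of 2. One group is TXNIP KO BAT exposed to cold for 40 min. The other 4 are wild type, namely 2 pairs exposed to cold for 40 min, 1 pair exposed for 4 h and 1 pair kept at room temperature. The labels do not say which 40 min pair is the control of TXNIP KO. WT pair 1 was used here for the time course and WT pair 2 for TXNIP KO, and values with the other pair are given where the calls change. The labels give neither the KO allele nor the animals' age or number, nor do they say whether WT pairs 1 and 2 share samples. The 2 libraries of a group may therefore be technical repeats, and p-values measure only the spread between these libraries. A peak list cannot check the loss of TXNIP or the makeup of the tissue, since binding near a marker gene is not expression. In a whole depot, fewer cells with bound HSF1 and less binding per cell cannot be told apart.

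TRiC is built as back-to-back rings of 8 related but distinct subunits around a folding chamber. ATP hydrolysis closes a built-in lid over the substrate, and actin and tubulin are its best known clients. Every ring needs 1 copy of each subunit. Biochemical work places the subunits that bind ATP tightly (from Cct2, Cct4, Cct5 and Cct7) on one side of the ring and those that bind it weakly (from Tcp1, Cct3, Cct6a and Cct8) on the other. HSF1 is the transcription factor that activates chaperone genes when proteins misfold. It binds as a trimer to heat shock elements, which are alternating repeats of GAA and its complement TTC at intervals of 5 bases.

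The bases under the HSF1 summit, the position of highest signal in a peak, were available for 5 subunits from promoter windows of RefSeq genes (GRCm38.p6), which run from 250 bases before to 50 after each annotated start. For Cct3, Cct6a and Cct7 the summit lay in the window of a neighbour annotated on the opposite strand, Tsacc, Psph or Pradc1. The best match to 3 heat shock units within 50 bp of the summit was taken at each of the 5 subunits. The units are alternating GAA and TTC with NN between them, starting with either, on both strands, with 9 fixed bases. The 30 bases around each match are shown on the strand of the subunit gene. Their likeness comes in part from this choice of the best match. Capitals mark the 13 matched bases.
Cct2: ccaagtgaaGAAGTTTCTAGCAggacctgc
Cct3: gctcttctCTCCAGAAGGTTCtgccgattc
Cct5: agcggccgaTTCCAGAAGCTACtctgcggc
Cct6a: gtgcgtaaGACTTTTCGAGAAgaccccgca
Cct7: ccagaagcTTCTGGGCATTTCtccggcgcg
The Cct2 stretch lies at chr10:117063397-117063426 on the minus strand, the Cct3 stretch at chr3:88297168-88297197 on the plus strand. The Cct5 stretch lies at chr15:31601860-31601889 on the minus strand. The Cct6a stretch lies at chr5:129787367-129787396 and the Cct7 stretch at chr6:85452017-85452046, both on the plus strand.

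A near-complete heat shock element thus stood close to the summit at 4 of these 5 genes. The Cct2, Cct3, Cct5 and Cct6a matches had 1 mismatch to 3 units, and the Cct7 match had 2. None of the 5 was a full match to 3 units. The centre of the match was 3 bp from the median summit at Cct7, 5 bp at Cct3, 15 bp at Cct5, 29 bp at Cct6a and 34 bp at Cct2. All 5 also held an exact pair of units within 50 bp of the summit, and the nearest such pair was GAANNTTC at Cct2, Cct3 and Cct7 and TTCNNGAA at Cct5 and Cct6a. These pairs can overlap the longer match. For comparison, 7.22% of all 32851 promoter windows held a match to 3 units with at most 1 mismatch, 15.1% held an exact pair and 0.603% held 3 exact units. Of the 93 windows with a summit in both room temperature libraries, 64.5% held 3 units with at most 1 mismatch and 65.6% an exact pair. These shares count a match anywhere in a window. The subunit matches were sought only within 50 bp of a summit, so the 2 are not measured alike. A match describes the letters and does not show a site. At Tcp1 and Cct8 the median summit lay 417 and 169 bp outside the gene's own window, and at those windows the best match had 2 mismatches.

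The Cct5 promoter is given at greater length because the summit fell upstream of its annotated start in all 8 libraries that called it. Among the strongest peaks of the subunits, only this one had its summit outside the gene span. In each of these libraries the Cct5 peak itself reached across that start. The 250 bases before that start, chr15:31601847-31602096 on the minus strand, run toward the gene, with the same 13 bases in capitals close to their end.
Cct5: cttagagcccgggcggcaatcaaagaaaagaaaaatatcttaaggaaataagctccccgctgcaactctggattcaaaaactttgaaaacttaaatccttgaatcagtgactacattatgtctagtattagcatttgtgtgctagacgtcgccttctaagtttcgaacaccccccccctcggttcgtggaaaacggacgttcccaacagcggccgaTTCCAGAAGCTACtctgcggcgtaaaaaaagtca

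HSF1 summits stayed within 123 bp at each subunit across the libraries that called it, which for Cct2, Cct5 and Cct6a include none at 4 h. On the tightly ATP-binding side of the ring, the Cct7 summit was at 85452034 on chromosome 6 (median), 529 bp into the gene, and its 9 libraries spanned 29 bp. The Cct4 summit was at 22990651 on chromosome 11, about 58.5 bp inside the gene end at 22990593, and spanned 50 bp over 10 libraries. The Cct5 summit was at 31601889 on chromosome 15, 43 bp outside the gene, with a span of 52 bp. The Cct2 summit had the widest span, 123 bp around 117063445 on chromosome 10. It stood 407 bp inside the outer end of the gene and upstream of a further annotated start.

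On the weakly binding side, the Cct3 summit was at 88297187 on chromosome 3, 52 bp into the gene, with a span of 48 bp. The Cct6a summit was at 129787410 on chromosome 5, about 54.5 bp into the gene, with a span of 47 bp. The Tcp1 summit was farther in, at 12916795 on chromosome 17, 466 bp from the start, with a span of 40 bp. The Cct8 summit was at 87495651 on chromosome 16, about 217.5 bp into the gene, with a span of 109 bp. Replicates of a group differed by at most 11 bp at Cct7 and at most 69 bp at Cct8, the widest replicate gap of the 8 genes. The summits thus split into a set near the gene end (Cct3, Cct4, Cct5 and Cct6a) and a set deeper inside (Cct8, Cct2, Tcp1 and Cct7), as the plot of summit positions shows.

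**Figure D1:**
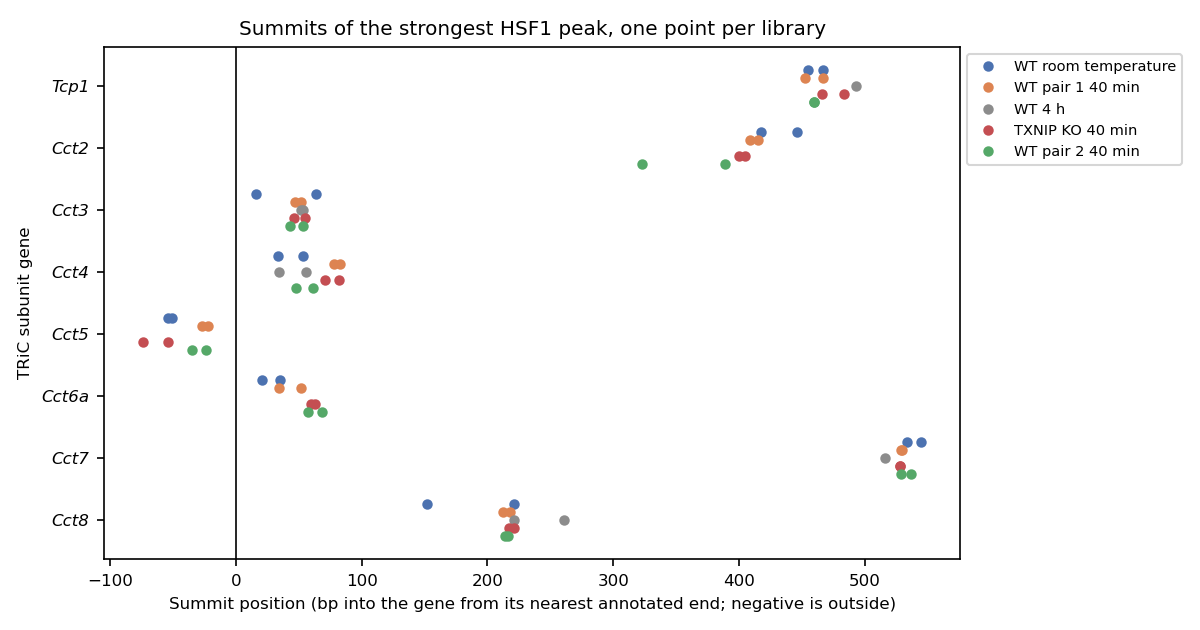
Summit of the strongest HSF1 peak at each TRiC subunit gene (rows), in bp into the gene from its nearest annotated end (x axis), with 1 point per library coloured by group. Cct5 points lie left of 0 and outside the gene, while Cct7 and Tcp1 points lie 453 to 545 bp inside it.

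Most of these summits were also close to another gene. A protein-coding neighbour had an end within 1000 bp of the median summit at 5 of the 8 subunits. The share over all genes was not counted, so this is not read as a trait of TRiC. Psph, which encodes the last enzyme of serine synthesis, was 33 bp from the Cct6a summit. Pradc1 was 47 bp from the Cct7 summit, Tsacc, which encodes a testis co-chaperone, 188 bp from the Cct3 summit and Atpsckmt, which encodes an ATP synthase methyltransferase, 227 bp from the Cct5 summit. Mrpl18, which encodes a mitochondrial ribosomal protein, was 992 bp from the Tcp1 summit. A peak list does not say which gene of such a pair a bound factor acts on.

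Each subunit had a single peak in its window except Cct4. A second peak in the Cct4 window appeared in 7 libraries, with its summit 750 to 887 bp past the start of Fam161a, a gene for a ciliary protein. Its fold was 4.77 in 1 room temperature library and 6.65 and 4.65 in WT pair 1. It was 20.5 and 14.6 in TXNIP KO, against 17.7 and 16.8 in WT pair 2. This peak was just inside the 5000 bp limit, with a gap of 3749 to 4058 bp to the Cct4 span. The nearest peaks beyond the limit were 6653 to 8162 bp from the spans of Cct4, Cct5 and Cct6a, all in the KO or WT pair 2 lists, with folds of 3.60 to 10.5.

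HSF1 was called at all 8 subunits in both libraries of TXNIP KO, of WT pairs 1 and 2 and of room temperature. At 4 h of cold, both libraries called it at 3 subunits, Cct3, Cct4 and Cct8. Replicate 1 at 4 h called these 3, with 0.493% of all genes, and replicate 2 called 5, with 1.27% of all genes. These counts stand beside 2.95% of all genes called at room temperature, 4.97% in WT pair 1, 0.466% at 4 h, 21% in TXNIP KO and 26.6% in WT pair 2, by the same rule. The lists held 919 and 1269 peaks at room temperature, 2287 and 1670 in WT pair 1 and 123 and 351 at 4 h. They held 10399 and 10633 in TXNIP KO, against 12644 and 14583 in WT pair 2. Read depth is unknown, and a subunit without a peak is not shown to be unbound.

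Fold enrichment is the authors' own value per peak, the pileup at the summit divided by the expected local level, on a linear scale. The input behind it is not known to be the same in all groups, so folds are given side by side across lists only as descriptions, and their order is read within a list. Ranks are by fold within a list (1 is the strongest), and ranks from lists of different lengths show no change.

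Cct7 was the strongest subunit in 7 of the 8 libraries that called all of them. Its fold was 57.0 and 57.2 at room temperature, 66.3 and 52.5 in WT pair 1 and 11.7 in replicate 2 at 4 h, with no peak in replicate 1. It was 284 and 249 in TXNIP KO, against 309 and 335 in WT pair 2. Cct7 ranked 20 and 19 at room temperature, 36 and 41 in WT pair 1 and 82 in the 4 h list that called it. It ranked 18 and 23 in TXNIP KO, against 24 and 19 in WT pair 2.

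Cct4 came second in 7 of those 8 libraries and first in the other one, replicate 2 of WT pair 1. Its fold was 42.0 and 42.8 at room temperature, 64.8 and 62.9 in WT pair 1 and 5.91 and 12.6 at 4 h. It was 203 and 201 in TXNIP KO, against 238 and 260 in WT pair 2. Its rank stayed between 31 and 37 in those 8 libraries and was 86 and 66 at 4 h.

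Cct2, on the same side of the ring, was the weakest subunit in all 8 of those libraries. Its fold was 7.39 and 7.61 at room temperature and 13.9 and 10.4 in WT pair 1, with no peak at 4 h. It was 35.8 and 30.1 in TXNIP KO, against 39.8 and 42.5 in WT pair 2. Its rank of 423 to 720 in these lists was far behind that of every other subunit, the next lowest being 220 for Cct5.

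Cct5 had a fold of 16.0 and 15.03 at room temperature, and of 21.7 and 20.3 in WT pair 1, and no peak at 4 h. In TXNIP KO it was 65.1 and 71.9, against 79.8 and 89.2 in WT pair 2. Cct5 took places 5 and 6 among the subunits at room temperature and place 7 in all 6 libraries at 40 min. In the 8 libraries that called all subunits, the side of the ring that binds ATP tightly thus held both the strongest and the weakest HSF1 peak.

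The 4 subunits on the weakly binding side lay between these extremes in the same 8 libraries, but not at 4 h. Cct3 had a fold of 21.2 and 23.2 at room temperature, 34.8 and 36.5 in WT pair 1 and 5.97 and 14.3 at 4 h. In TXNIP KO it was 130 and 134, against 151 and 163 in WT pair 2. Cct8 had a fold of 18.4 and 19.1 at room temperature, 36.5 and 30.3 in WT pair 1 and 7.35 and 9.64 at 4 h. In TXNIP KO it was 141 and 134, against 155 and 164 in WT pair 2. Cct3 and Cct8 exchanged places between the replicates of TXNIP KO and of WT pair 1, while Cct8 was ahead in both libraries of WT pair 2 and Cct3 in both at room temperature.

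Tcp1, the founding member of the family, had a fold of 13.6 and 18.3 at room temperature, 45.9 and 39.0 in WT pair 1 and 11.4 in replicate 2 at 4 h, with none in replicate 1. In TXNIP KO it was 156 and 161, against 169 and 162 in WT pair 2. Tcp1 took places 7 and 5 among the subunits at room temperature but place 3 in 5 of the 6 libraries at 40 min and place 5 in the other. Cct6a had a fold of 14.2 and 13.4 at room temperature, and of 26.8 and 20.6 in WT pair 1, with none at 4 h. In TXNIP KO it was 87.6 and 78.1, against 102 and 111 in WT pair 2. Cct6a took place 6 in all 6 libraries at 40 min. All 8 subunits had lower folds in both TXNIP KO libraries than in both libraries of WT pair 2, as did 39.1% of the 7131 regions called in all 4. This was not particular to TRiC. The same held for every gene of the HSP70 and HSP90 system described below, and for Hspd1, Hspe1, Actb and Gnb1. The scale of folds may differ between lists, and the difference was not tested.

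**Figure D2:**
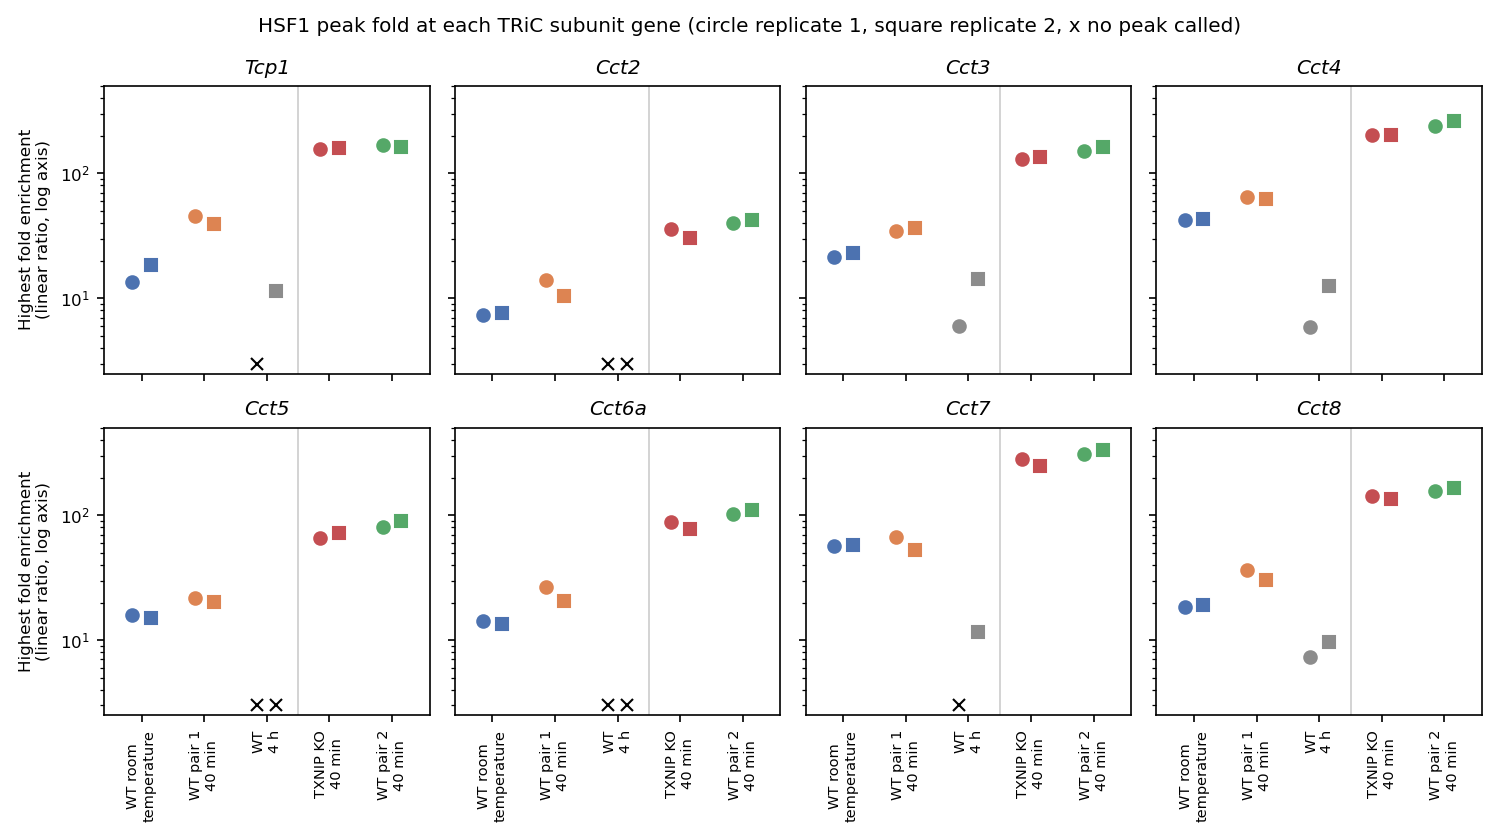
Highest fold enrichment (linear ratio on a log axis) of the HSF1 peak at each TRiC subunit gene, by group, with a circle for replicate 1, a square for replicate 2 and a cross at the bottom where no peak was called. The points left of the grey line are the time course, and crosses occur only at 4 h, at Tcp1, Cct2, Cct5, Cct6a and Cct7.

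The complex was bound unevenly in every group that called all 8 subunits. The highest fold among the 8 subunits was 7.93 and 8.26 times the lowest in TXNIP KO, against 7.78 and 7.89 times in WT pair 2. It was 7.71 and 7.51 times the lowest at room temperature and 4.76 and 6.05 times in WT pair 1. The SD of log2 fold over the subunits, which does not depend on a common scaling of a list, averaged 0.966 ± 0.020 in TXNIP KO and 0.931 ± 0.004 in WT pair 2 (SD, n = 2 each). The difference was 0.03 (two-sided exact permutation test over libraries, p = 0.33, the smallest that 2 against 2 can give). It averaged 0.807 ± 0.049 in WT pair 1, against 0.932 ± 0.009 at room temperature (SD, n = 2 each), a difference of -0.12 (exact permutation p = 0.33). With WT pair 2 in place of the first, the difference from room temperature was -0.00074 (exact permutation p = 1), so it rests on the choice of pair. At 4 h the SD was 0.18 and 0.21, but over only the 3 and 5 subunits with a peak.

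The first comparison of the time course is 40 min of cold with room temperature. All 8 subunits were called in both groups, so none could be gained, and none was lost, against 0.465% of the 645 genes called at room temperature. Order was compared among the 756 regions called in all 4 libraries, so that every list has the same length. Tcp1 and Cct8 stood higher in both 40 min libraries than in both room temperature libraries, which 25.8% of these regions did. Cct4, Cct5 and Cct7 stood lower, which 26.1% did. These are 2 and 3 of 8 subunits. Without replicate 2 of WT pair 1, 4 subunits were higher and 4 lower, against 36.7% and 37.4% of 792 regions.

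Tcp1 had the largest move upward. It took places 60 and 63 of 756 in WT pair 1, against 138 and 100 at room temperature. Cct5 moved the other way, with places 195 and 165 at 40 min, against 106 and 137 at room temperature. Cct7 had places 36 and 41 at 40 min, against 20 and 19 at room temperature. Each gave an exact permutation p of 0.33, the smallest possible. The moves of Tcp1 and Cct5, 7.62 and -7.91 points in percent rank, were no larger than the median absolute move of 8.48 points over all shared regions.

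The ratio of the Tcp1 fold to the Cct5 fold is given as a description, since these subunits were picked after their moves were seen. It was 2.11 and 1.92 in WT pair 1, against 0.850 and 1.22 at room temperature. It was 2.39 and 2.24 in TXNIP KO and 2.12 and 1.81 in WT pair 2. When WT pair 2 stood for 40 min, 3 subunits were higher than at room temperature (Tcp1, Cct3 and Cct8) and 3 lower (Cct2, Cct4 and Cct5) among 792 shared regions, of which 29.7% and 30.8% moved so. Both 40 min pairs are set against the same room temperature libraries. The lower order of Cct7 was seen only with the first pair. The ratio of the Cct7 fold to the Cct4 fold was 1.02 and 0.835 in WT pair 1, against 1.36 and 1.34 at room temperature, while it was 1.30 and 1.29 in WT pair 2.

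**Figure D3:**
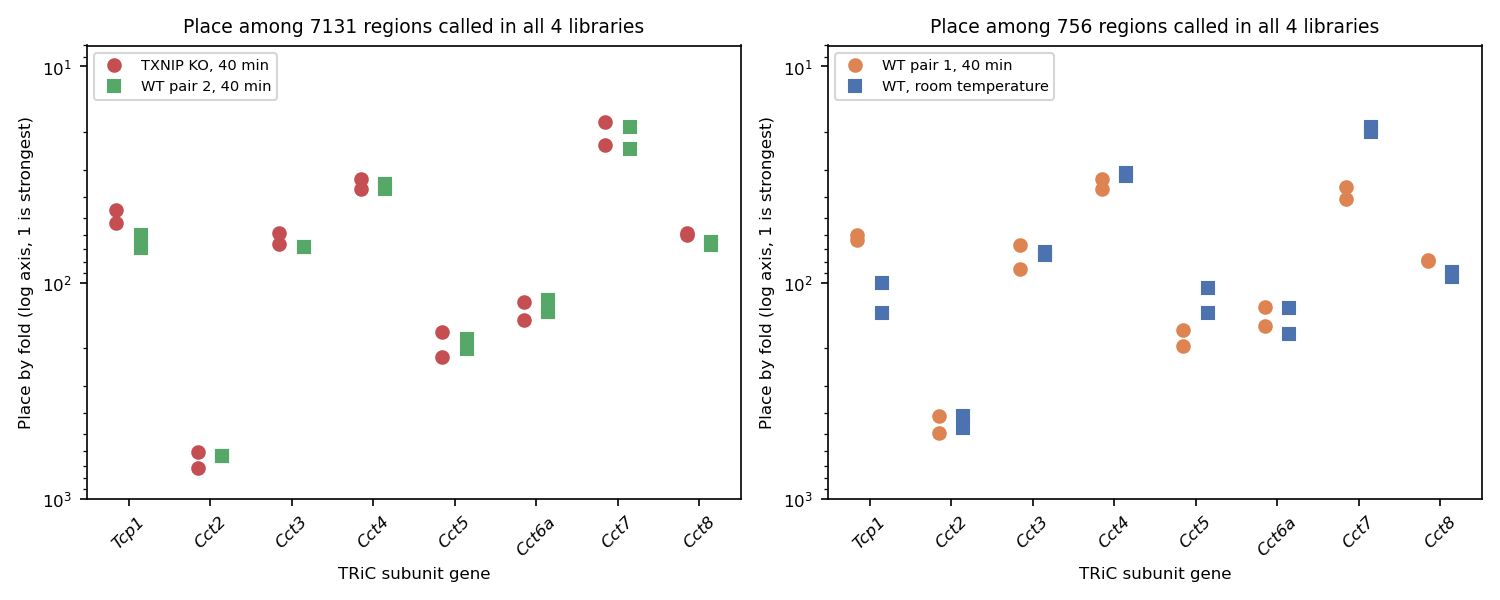
Place by fold (log axis, 1 is the strongest) of each TRiC subunit among regions called in all 4 libraries of a comparison, for TXNIP KO and WT pair 2 (left) and for WT pair 1 and room temperature (right). On the right, both 40 min points of Tcp1 lie above both room temperature points, and those of Cct5 and Cct7 lie below.

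After 4 h of cold, 3 of the 8 subunits bound at room temperature were called in neither library. These were Cct2, Cct5 and Cct6a. Of the 645 genes called at room temperature, 63.4% were lost in the same way. The same 3 subunits were lost relative to WT pair 1, against 75.2% of its 1087 called genes. Tcp1 and Cct7 had a peak in replicate 2 only. Cct2, Cct5 and Cct6a were 3 of the 4 weakest subunits at room temperature, while Cct7, the strongest there, was missing from the shorter 4 h list. With replicate 1 alone standing for 4 h, 5 subunits were lost, against 85.1% of the genes called at room temperature, and with replicate 2 alone 3 were, against 63.6%.

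Among the 3 subunits with a peak in both 4 h libraries, Cct4 was no longer the strongest. Cct4 took places 74 and 57 among 98 regions called in all 4 libraries, against 29 and 29 at room temperature, and 38.8% of these regions were lower in both 4 h libraries. This was a move of -37.6 points in percent rank, against a median absolute move of 12.9 points over the 98 regions (exact permutation p = 0.33). Relative to WT pair 1 it took places 78 and 58 of 105, against 30 and 30 (34.3% of regions lower in both). No subunit was higher in either comparison, which 28.6% and 32.4% of regions were. Cct3 had places 67 and 44 at 4 h, against 49 and 49 at room temperature, and Cct8 had 46 and 76, against 52 and 56, so their groups overlapped. The 4 h replicates differed in order, with Cct8 first in replicate 1 and Cct3 in replicate 2. With replicate 2 alone, 3 of 5 subunits were lower and 2 higher than at room temperature, against 42.1% and 47.8% of 278 regions. With replicate 1 alone, 2 of 3 were lower and 1 higher, against 48% and 38% of 100 regions. As a description, the Cct4 fold was 0.990 and 0.883 times the Cct3 fold at 4 h, against 1.98 and 1.84 times at room temperature. In replicate 1 at 4 h both folds (5.91 and 5.97) were below the median of 7.12 over that list. In replicate 2 (12.6 and 14.3) they were above its median of 7.94.

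With the 123 strongest peaks of each list by −log10 p, as many as the shortest list holds, the difference in calls was smaller. Both libraries then called 4 subunits at room temperature (Cct3, Cct4, Cct7 and Cct8), 5 in WT pair 1 and 3 at 4 h. In TXNIP KO 5 were called, and 5 in WT pair 2. None was lost at 4 h against room temperature, while 37 of the 115 genes called at room temperature in these lists were. These lists cover 0.525% of genes at room temperature, 0.512% in WT pair 1 and 0.379% at 4 h, with 0.567% in TXNIP KO and 0.53% in WT pair 2.

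The genotype comparison sets TXNIP KO at 40 min of cold against wild type at 40 min. All 8 subunits were called in both groups, so none could be gained, and none was lost, against 10.6% of the 5813 genes called in WT pair 2. Order was compared among 7131 regions called in all 4 libraries. Tcp1, Cct3 and Cct8 stood higher in both KO libraries than in both wild type libraries, which 23.9% of regions did, and none stood lower, which 21.6% did.

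The moves were small. Tcp1 took places 53 and 46 in TXNIP KO, against 60 and 69 in WT pair 2. Cct8 took places 59 and 60 in TXNIP KO, against 67 and 65 in wild type, and Cct3 took 66 and 59, against 68 and 68. Each of the 3 gave an exact permutation p of 0.33. The largest of the 8 moves in percent rank was -0.449 points at Cct2, while the median absolute move over all regions was 5.52 points. Regions near the top of a list have little room to move. Cct2, the lowest in order, took places 604 and 718 in TXNIP KO, against 628 and 630 in wild type, and its groups overlapped. Without KO replicate 1, 5 subunits were higher and 2 lower, against 38.3% and 35.7% of 8109 regions. Without KO replicate 2, 5 were higher and 1 lower, against 38.5% and 35.7% of 8046 regions. Without replicate 1 of WT pair 2, 3 were higher and 1 lower, against 36.4% and 33.4% of 7584 regions. With 1 library on a side, more regions of every kind do not overlap. With WT pair 1 as control, Tcp1, Cct3, Cct7 and Cct8 were higher and Cct2 lower among 1463 regions, of which 25.6% and 24.5% moved so.

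Both wild type pairs were taken at 40 min of cold and carry the same labels for genotype and treatment. All 8 subunits were called in both pairs, and 0.092% of the 1087 genes called in the first were lost in the second. Among 1461 shared regions, Cct7 and Cct8 were higher in the second pair (20.3% of regions) and Cct2 lower (20.1%). Cct2 took places 625 and 628 in the second pair, against 436 and 554 in the first. The move of -9.01 points compares with a median absolute move of 4.97 points over all regions. This was the largest move of a subunit in the comparison. Without replicate 1 of WT pair 1, 4 subunits were lower, against 39.7% of regions, and without replicate 1 of WT pair 2, 2 were, against 31.8%.

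The median TRiC peak was weaker than that of the HSP70 and HSP90 system in every list. That list holds 8 genes, and all of them were called in all 10 libraries. They include Hsp90ab1 and Hsp90aa1 for cytosolic HSP90, Hspa8 and Hspa1b for HSP70, Dnaja1 for an HSP40 partner and Hsph1 for an exchange factor. The 2 groups of genes were not fully apart. Dnajb1, also in the list, was below Cct7 and Cct4 in all 8 libraries that called every subunit. Its folds were 35.5 and 36.5 at room temperature, against 42.0 and 42.8 for Cct4. Median folds of TRiC were 136 and 134 in TXNIP KO, where those of the HSP70 and HSP90 genes were 477 and 462. In WT pair 2 they were 153 and 162 for TRiC, with 532 and 551 for the other list. At room temperature they were 17.2 and 18.7 for TRiC, with 111 and 102 for the other list. In WT pair 1 they were 35.6 and 33.4, with 167 and 133.

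Within a list, the TRiC median was thus 21.4% and 25.1% of the HSP70 and HSP90 median in WT pair 1, against 15.4% and 18.4% at room temperature. It was 28.5% and 29.0% in TXNIP KO, against 28.8% and 29.5% in WT pair 2. At 4 h it was 33.3% and 34.7%, with medians of 5.97 and 11.7 for TRiC and 17.9 and 33.7 for the other list, over only the 3 and 5 subunits with a peak. The mitochondrial chaperonin genes Hspd1 and Hspe1, which belong to the other class of chaperonins and share 1 peak, had folds of 1148 and 1109 in TXNIP KO, against 1296 and 1210 in WT pair 2. These are above every TRiC subunit. No test across these lists was made, since their members were chosen with earlier results known.

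**Figure D4:**
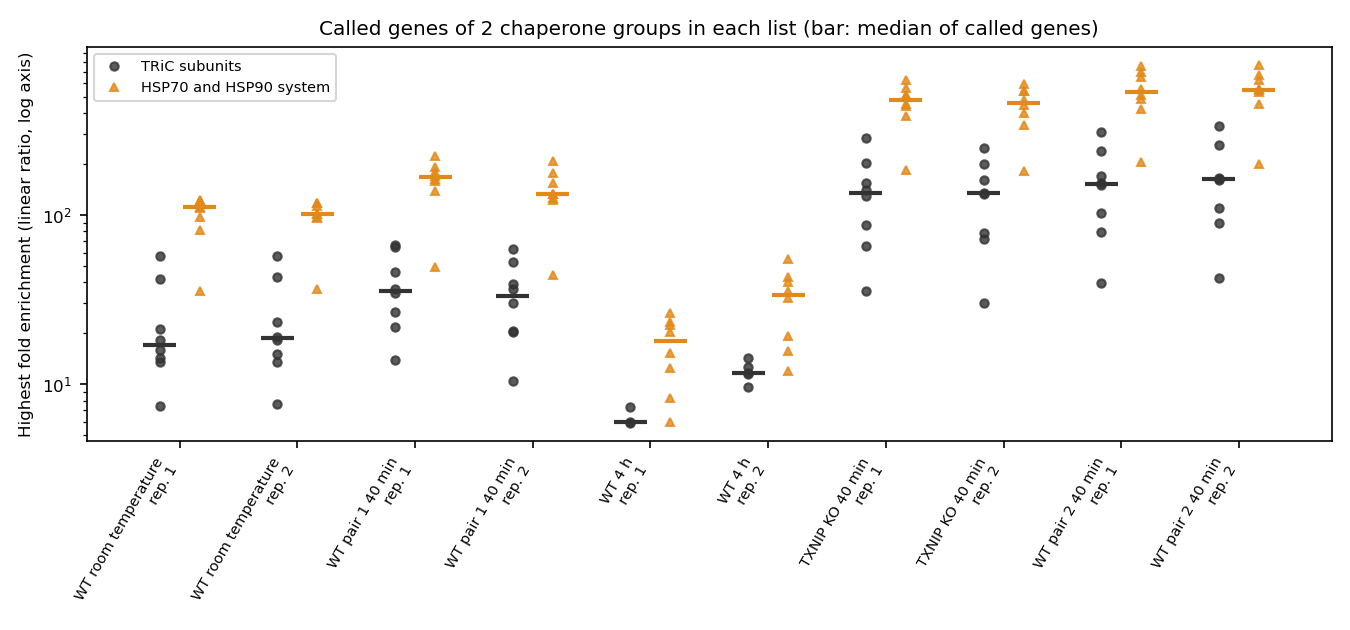
Highest fold enrichment (linear ratio on a log axis) of each called gene of TRiC (dark circles) and of the HSP70 and HSP90 system (orange triangles) in each of the 10 lists, with bars at the medians of called genes. All 8 HSP70 and HSP90 genes appear in every list, while TRiC has 3 and 5 points at 4 h.

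Partners of TRiC had lower folds than its subunits where they had a peak. Prefoldin, which hands unfolded actin and tubulin to TRiC, had 0 of 6 genes called in both libraries at room temperature, in WT pair 1 and at 4 h. In TXNIP KO it had 2 (Pfdn2 and Vbp1), against 3 in WT pair 2 (Pfdn1 as well). All genes were called at 21% and 26.6% in these groups. The folds of Pfdn2 were 6.85 and 6.12 in TXNIP KO, against 3.94 and 7.097 in wild type, and those of Vbp1 were 4.77 and 6.12, against 4.38 and 4.80. Pfdn1 had 1 KO peak, at 6.22, against 5.09 and 4.63 in wild type. The Pfdn1 summits lay 11780 to 11903 bp from the nearest gene end. None of the 4 phosducin-like genes, whose products bind TRiC as co-factors, was called in both libraries of a group. Pdcl and Txndc9 each had a peak in 1 library of WT pair 2, with folds of 2.99 and 3.60. Among 4 other genes with a chaperonin fold, only Bbs12, a gene for a chaperonin-like protein of the cilium, was called in both libraries of a group, with folds of 12.4 and 6.37 in TXNIP KO, against 11.3 and 8.23 in WT pair 2.

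Client genes were called in part, some by peaks far from a gene end. Of 12, Actb and Gnb1 were called in both libraries at room temperature and in WT pair 1, and none at 4 h. In TXNIP KO 6 were called, against 7 in WT pair 2. Of all genes, 2.95% were called at room temperature, 4.97% in WT pair 1 and 0.466% at 4 h, with 21% in TXNIP KO and 26.6% in WT pair 2. Actb, which encodes cytoplasmic actin, had folds of 92.1 and 86.9 in TXNIP KO, against 96.8 and 95.1 in WT pair 2, with 18.1 and 18.8 at room temperature and 35.8 and 28.4 in WT pair 1. In 7 libraries its summit lay 1710 to 1752 bp from the nearest gene end. The fold of 35.8 belongs to another peak, with its summit 2321 bp from the nearest end, which was the strongest in replicate 1 of WT pair 1. Gnb1, which encodes a G protein beta subunit, had folds of 75.5 and 76.1 in TXNIP KO, against 90.6 and 103 in wild type, with the summit 8907 to 8946 bp from the nearest gene end. Tubulin genes were weaker, with folds of 9.96 and 13.04 for Tuba1b in TXNIP KO, against 15.1 and 13.4 in wild type. The Tuba1b summits lay 2832 to 2874 bp from the nearest gene end. Tuba1c lay between 11.9 and 13.5 in these 4 libraries, and Tubb2a had 8.09 and 5.78, against 10.8 and 9.94. Cdc20, a cell cycle regulator folded by TRiC, had 6.85 and 3.95, against 4.78 and 4.29. The Cdc20 summits lay 4751 to 4935 bp from the nearest gene end.

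The regions whose place in the lists was most like that of TRiC were found among 95 regions called in all 10 libraries. Cct3, Cct4 and Cct8 are among these, and likeness was the mean absolute difference from their mean percent rank over the 10 libraries. The closest was a region 31562 bp from Rph3al, with a difference of 2.71 points. It was followed by the region at Dnajb1, an HSP40 gene and the partner of inducible HSP70, with 4.52 points, and one at Ccdc117 with 4.93 points. Cct3 itself was 7.29 points from this mean.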

How the data were processed

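HSF1 ChIP-seq peak lists of 10 libraries were used. The 5 input libraries, 1 of them with labels that conflict, were not analysed here. Per the labels' protocols, crosslinking used DSG (2 mM, 25 min) and then formaldehyde (0.8%, 12 min), and the antibody was Cell Signaling 4356. The submitters' processing notes name MACS2 2.2.7.1, BWA 0.7.17, Trim Galore 0.6.0, deepTools 3.4.3 and SAMtools, with the build GRCm38.p6 (mm10). The sources used here do not state the filters or which input each library was called against. The authors deposited, for each peak, a fold enrichment (a linear ratio), the −log10 of the p-value and q-value, an integer score that was not used, and the summit offset. The smallest −log10 q was 1.30.

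Chromosomes 1 to 19, X and Y were kept, and positions are 1-based. Each subunit took its highest-fold peak in the span plus 5000 bp. A gene was called in a group when both libraries had such a peak, gained when both libraries of the first group and neither of the other had one, and lost in the opposite case. Shares of genes lost are over the genes called in the group compared against. Regions were peaks joined at 1 bp of overlap, and percent rank is the share of other regions with a lower fold. Exact permutation tests were two-sided over libraries, 2 against 2. Gene spans come from a RefSeq table of GRCm38.p6, where the 8 subunits and all 52 further listed symbols were found. Python 3.11.15 with pandas 2.3.3 and NumPy 2.4.6 was used. The ordering step was tested on simulated lists, and the calling step was checked against a direct overlap search on deposited peaks.

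Named genes were the 8 subunits, neighbours with an end within 1000 bp of a summit, up to 6 called members per list by fold and the 3 regions closest in order. The members, lists and rules were chosen with earlier results of these data known. Alternatives were the window, q threshold, list length, order by −log10 p, joining by summits within 250 bp, controls and each library left out.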

Additional observations from a re-analysis of the deposited data

How the results depend on the processing

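Calls per group, gains and losses were the same with other windows, with a −log10 q of at least 5 and with other control pairs. With a −log10 q of at least 10, 2 subunits in place of 3 were called at 4 h. The share of all genes called with that threshold is not given, so nothing is read from this count. With the strongest 123 peaks per list, 4 subunits were called at room temperature and 5 each in WT pair 1, TXNIP KO and WT pair 2. At 4 h 0 were lost in both comparisons. Among all genes, 37 of 115 were lost against room temperature and 34 of 112 against WT pair 1. Leaving out each library in turn gave 3 to 5 subunits called at 4 h, and 3 to 5 lost against room temperature and against 40 min. The other calls stayed at 8, and the other gains and losses at 0. Shares of regions in the same direction are in brackets. In TXNIP KO, 3 to 5 of 8 subunits were higher in order and 0 to 2 lower (36.4% to 38.5%, 33.4% to 35.7%). For 40 min against room temperature, 2 to 4 were higher and 3 to 4 lower (35.3% to 38.5%, 35.5% to 42%). At 4 h, 3 to 5 subunits were shared. Against room temperature, 0 to 2 were higher and 1 to 3 lower (32.3% to 47.8%, 41.3% to 48%). Against 40 min, 0 to 1 were higher and 1 to 4 lower (35.5% to 44.4%, 36.4% to 47.7%). Replicate 2 alone gave the 4, of 5 subunits. Between the wild type pairs, 2 to 3 were higher and 1 to 4 lower (30.5% to 39.9%, 31.8% to 39.9%). By −log10 p, 2 were lower at 4 h against 40 min and 0 between the wild type pairs. The share of regions for that order is not given, so nothing is read from these counts. With WT pair 1 as control, 1 was lower in TXNIP KO, against 24.5% of 1463 regions.

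The difference in SD of log2 fold reversed to -0.065 between the wild type pairs by −log10 p (exact permutation p = 0.67), to -0.037 for TXNIP KO over the 3 subunits called in all 10 libraries and to -0.15 between the wild type pairs over them. The cause was not tested. Left out in turn, libraries gave 0.020 to 0.049 for TXNIP KO and -0.16 to -0.090 for 40 min. Between the wild type pairs they gave 0.089 to 0.16. For 4 h they gave -0.75 to -0.72 against room temperature and -0.65 to -0.58 against 40 min. These 4 h ranges set an SD over only the 3 and 5 subunits with a peak against an SD over all subunits. Over the 3 subunits called in all 10 libraries, the 4 h difference was -0.39 against room temperature and -0.29 against 40 min. With replicate numbers as a block, the differences over all called subunits were unchanged (0.03 for TXNIP KO). The exact p was 0.50, the smallest that 2 pairs allow. The labels share only a number. Heat shock elements within 50 bp of the summit were 0 of 5 with 3 exact units, 4 with 1 mismatch allowed and 5 with an exact pair. Read depth is not known, so its part in missing calls was not tested.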

Other observations

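HSF1 peaks near markers of cell types that a fat depot can hold were counted with the same window. Of all genes, 21% were called in TXNIP KO, against 26.6% in WT pair 2, with 2.95% at room temperature, 4.97% in WT pair 1 and 0.466% at 4 h. Of 4 brown adipocyte markers, 3 were called in TXNIP KO and 3 in WT pair 2 (Ucp1, Cidea and Ppargc1a), with 1 at room temperature, 1 in WT pair 1 and 0 at 4 h. Of 4 endothelial markers, Pecam1 was called in every group except 4 h, with folds of 43.5 and 34.8 in TXNIP KO, against 52.4 and 45.1 in WT pair 2, at summits 21042 to 21126 bp from the nearest gene end. None of 4 skeletal muscle markers and none of 4 leukocyte markers was called in both libraries of any group. These are binding calls and say nothing of expression.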
